A study of Homo sapiens with 2 samples.

Results

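To follow LDB1 at the genes of 2 myeloid transcription factor families, the deposited CUT&Tag peaks were searched around 5 CEBP genes (CEBPA, CEBPB, CEBPD, CEBPE and CEBPG) and 4 IRF genes (IRF1, IRF2, IRF4 and IRF8). A peak was a member when it overlapped the GENCODE release 44 body of one of these genes with 50 kb added on each side, a span called the window of that gene. This gave 27 of the 11046 peaks of the list, and 17 of the 27 lay around CEBPE. The remaining peaks were 6 at IRF1, 2 at CEBPB, and 1 each at IRF2 and IRF8, while CEBPA, CEBPD, CEBPG and IRF4 had 0.

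In CUT&Tag an antibody leads a transposase to chromatin, where it cuts and tags DNA near the bound protein. The cells were NB4, an acute promyelocytic leukemia line arrested as promyelocytes, and the study made a single library against LDB1 and a single IgG library. The labels describe LDB1 overexpression for the LDB1 library and no treatment for the IgG library, so antibody and treatment cannot be told apart. The methods for this assay name NB4 cells without overexpression, so whether the LDB1 library came from overexpressing cells rests on the label alone. With 1 library for each antibody there was no replicate and no test between groups, and the deposited list gives peak positions and lengths without heights or read depth. It holds only regions that passed the peak caller's threshold, so a gene without a peak is not shown to lack LDB1.

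CEBP proteins are leucine zipper factors that bind DNA as dimers and drive granulocyte and monocyte development, with CEBPA acting at the commitment step and CEBPE in late granulocyte maturation. IRF proteins bind interferon response elements. IRF8 is needed for monocytes and dendritic cells, IRF4 acts mainly in lymphoid cells, IRF1 is induced by interferon, and IRF2 opposes IRF1 at many sites. LDB1 does not bind DNA itself and is brought to chromatin by LMO2 together with TAL1 and GATA factors. The DNA mark of that complex is a composite element, in which the letters CTG stand 7 or 8 bases ahead of a GATA site (WGATAR, where W is A or T and R is A or G).

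Composite elements lay within 3 of the CEBPE peaks and 1 of the IRF1 peaks, at 6 sites in all. Over their whole length, 4 of the 27 peaks (14.8%) thus held the element, where 22.4% of all peaks did. The sequences of 5 sites follow, since the element is the sequence mark of the known complex. The remaining site lies in the same peak as the first below, with untranslated sequence in its flank, and is not printed. A match describes the letters only and is not evidence of binding. Each runs from 5′ to 3′ on the strand of the element in hg38, with the element in capitals and 20 bases on either side.

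CEBPE, 21320 bp downstream of its TSS in a peak of 444 bp (chr14:23097907-23097963, minus strand): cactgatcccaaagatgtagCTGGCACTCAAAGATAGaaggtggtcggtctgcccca
CEBPE, 6443 bp downstream in the peak of 3034 bp (chr14:23112785-23112840, minus strand): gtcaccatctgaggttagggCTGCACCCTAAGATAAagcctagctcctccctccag
CEBPE, 6319 bp downstream in the same peak (chr14:23112908-23112964, minus strand): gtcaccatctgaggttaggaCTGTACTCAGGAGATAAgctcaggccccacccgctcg
CEBPE, at -1563 bp in a peak of 549 bp (chr14:23120791-23120846, minus strand): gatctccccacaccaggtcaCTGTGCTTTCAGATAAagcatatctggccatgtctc
IRF1, 67950 bp downstream in a peak of 1694 bp (chr5:132422796-132422851, minus strand): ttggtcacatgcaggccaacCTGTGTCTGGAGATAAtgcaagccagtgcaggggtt

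Distances are from the canonical transcription start site (TSS) of the named gene along its direction of transcription, and negative values are upstream. Both elements of the 3034 bp peak were on the same strand, 123 bp apart, and 19 of the 20 bases ahead of them were identical. Their spacing differed, with 7 bases between CTG and the GATA site in one and 8 in the other.

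To place these counts among all genes, the same window was drawn around each of 20033 protein-coding genes. Results showed that 8973 of them (44.8%) had at least 1 peak, compared with 5 of the 9 CEBP and IRF genes (55.6%). Within 3 kb of the gene body, 19.7% of all protein-coding genes and 3 of the 9 (33.3%), namely CEBPE, IRF1 and IRF2, had a peak. With 9 genes both shares are close to the background, so the group as a whole does not stand out by having a peak. The spread between the members was wide. The median window held 0 peaks, 84.2% of windows held 2 or fewer and 4.24% held 6 or more. IRF1 thus lay at 6 and CEBPE at 17, with the other 7 members at 2 or fewer. The canonical transcript alone gave IRF1 only 2 peaks, as described below. For CEBPE, 19 genes had more peaks and 5 had as many.

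**Figure D1:**
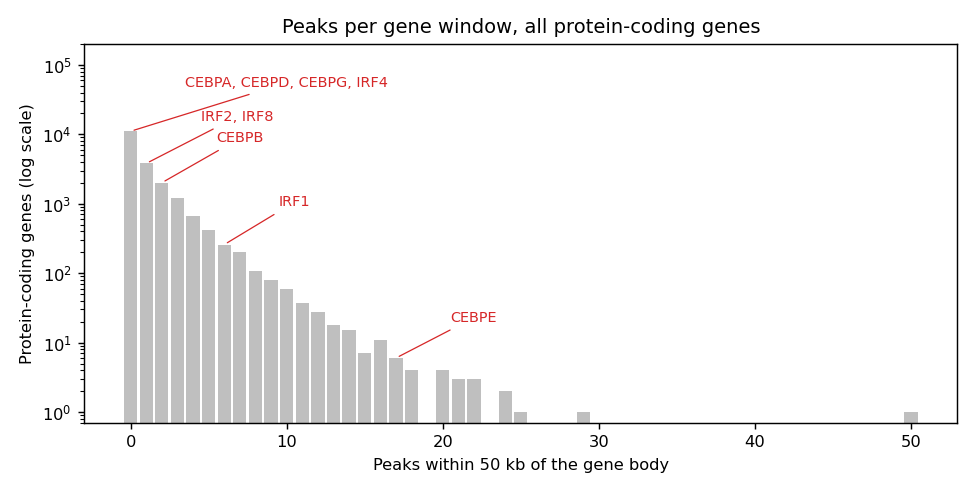
Number of protein-coding genes (vertical, log scale) by the number of LDB1 peaks within 50 kb of the gene body (horizontal), with the 9 CEBP and IRF genes named at their counts. CEBPE sits at 17 peaks in the far tail, and CEBPA, CEBPD, CEBPG and IRF4 sit in the bar at 0 with 11060 genes in all.

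**Figure D2:**
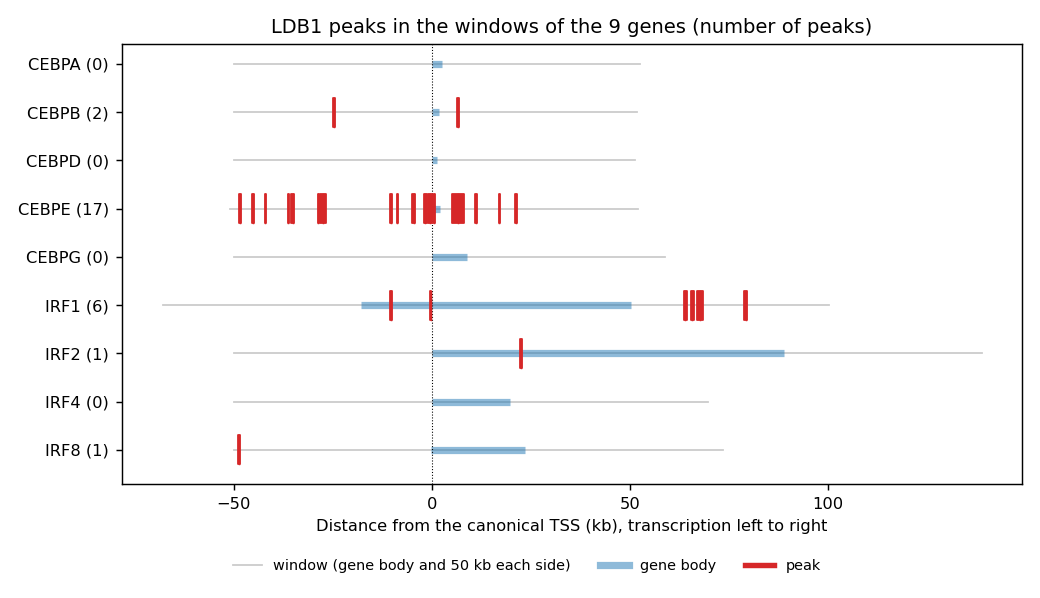
Peaks (red, drawn with a minimum width so that short ones can be seen) in the window of each gene, by distance in kb from the canonical TSS; grey lines are windows and blue bars are gene bodies. The peaks crowd around CEBPE, the 4 distal IRF1 peaks lie together beyond the gene body, and 4 windows are empty.

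CEBPE (ENSG00000092067.7, chromosome 14, 23117036 to 23120256, minus strand) is the factor of late granulocyte maturation, and its loss causes specific granule deficiency. Its window of 103221 bp held 16.5 peaks per 100 kb, and 6 protein-coding genes had a denser window. The rate was 0.358 per 100 kb over chromosomes 1 to 22, X and Y, which include stretches far from any gene. Over all gene windows the mean was 1.17 peaks per window, where CEBPE had 17. The 17 peaks covered 11.7% of the window, where the mean over all gene windows was 0.497%, and 10 genes had a larger share. Neighbouring windows overlap, so genes that rank beside each other can share peaks. SLC7A8, an amino acid transporter gene upstream of CEBPE, had 18 peaks in its own window, and CIROP, C14orf119 and ACIN1 on the other side had 13, 12 and 11.

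A peak of 1213 bp (23118985 to 23120197) covered the canonical TSS of CEBPE at 23119255, with its midpoint at -336 bp. It held all 300 bases of the RefSeq promoter of CEBPE (GRCh38.p14, from 250 bases before the start to 50 after it). A short peak of 271 bp had its midpoint in the coding exon of CEBPE, 640 bp downstream of the TSS. Upstream, peaks of 549 and 896 bp had their midpoints at -1572 and -4556 bp in intergenic sequence. CEBPE thus had peaks on its start, within its coding sequence and just ahead of it. Within 3 kb of the gene body lay 4 of the 17, namely those of 1213, 271 and 549 bp and the downstream peak described next.

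The longest of the 17 was intergenic and lay downstream of the gene, on chromosome 14 from 23111088 to 23114121 (3034 bp). Its midpoint was 6651 bp from the TSS. It ranked 29 among all 11046 peaks by length, and 0.263% of peaks were at least as long. A downstream enhancer of Cebpe is known from mouse granulocytic cells, and whether this peak is its human counterpart was not tested. It held 9 GATA sites, those within its pair of composite elements included, 5 TAL1 E-boxes (CAGMTG, M is A or C), 6 RUNX sites (TGYGGT, Y is C or T) and 3 CEBP sites (TTGCNNAA), counted over its whole length. Counts of short motifs rise with peak length, and they were not compared with other sequence of equal length.

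Farther downstream, peaks of 473, 277 and 444 bp had their midpoints at 11269, 17039 and 21308 bp, the second and the last of these in coding exons of CIROP and C14orf119. The upstream side held more peaks, 12 of the 17. Of these, 9 had their midpoint within SLC7A8. They ranged from 236 to 1537 bp in length and from -8738 to -48446 bp from the CEBPE TSS. The longest, 1537 bp at -27440 bp, lay in intron 3 of SLC7A8 and held 9 GATA sites with no composite element, again counted over its whole length. Its midpoint was 237 bp from the TSS of an annotated transcript. The peaks of 717, 390, 616 and 279 bp in SLC7A8 lay 1, 20, 592 and 991 bp from one. For the rest in SLC7A8 this distance was 2150 to 11287 bp. By the nearest canonical TSS of a protein-coding gene, 9 of the 17 peaks were assigned to CEBPE, 5 to SLC7A8, and the rest to CIROP and C14orf119. Those at -8738, -10296, -27440 and -28668 bp went to CEBPE though they lay within SLC7A8, each with another annotated TSS nearer. The list does not tell which gene a peak acts on.

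The gaps between neighbouring peaks ranged from 234 to 16067 bp with a median of 2935 bp. When peaks up to 10 kb apart were joined, the window held 2 clusters. A cluster of 10 peaks spanned 32134 bp around CEBPE, and 23 of the 7168 clusters of the whole list held more peaks. Peaks that joined no other are among the 7168, and only 1985 clusters held more than 1 peak. A cluster of 7 peaks spanned 21959 bp in SLC7A8, and 57 clusters held more.

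**Figure D3:**
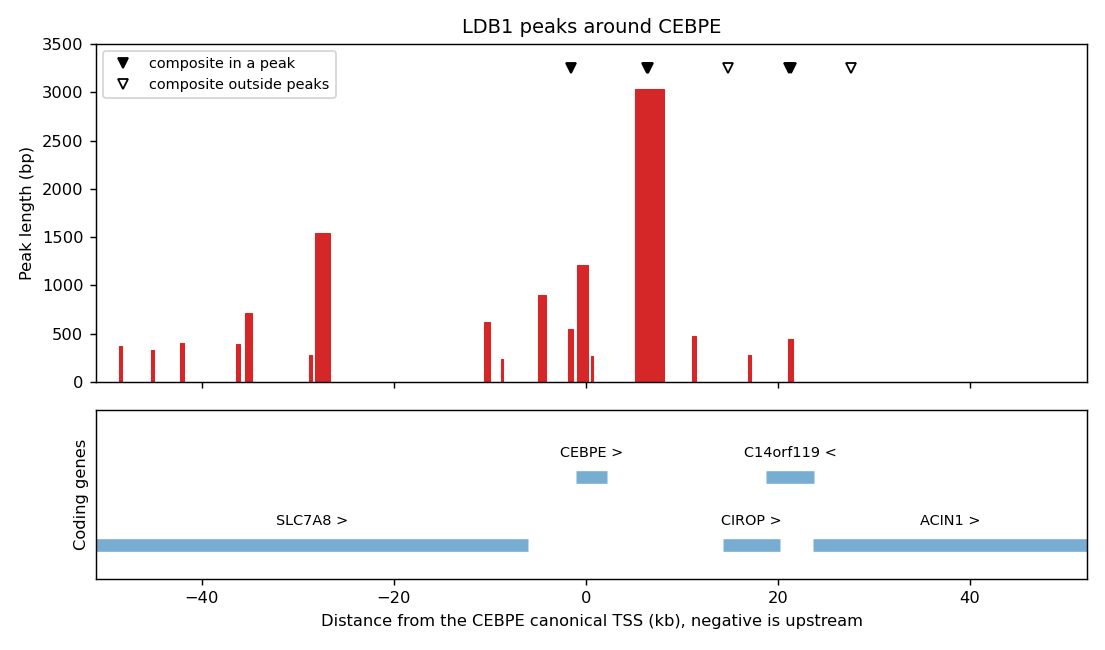
Length in bp of each of the 17 peaks around CEBPE (bar height and, to scale, bar width) by distance in kb from the canonical TSS, with composite elements as triangles (filled in a peak, open outside, 2 pairs nearly coinciding) and coding genes below, where > marks transcription to the right and < to the left. The bar at 6651 bp downstream reaches 3034 bp, and 5 of the 7 composite elements of the window lie in a peak.

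IRF1 (ENSG00000125347.15, chromosome 5, 132440440 to 132508719, minus strand) encodes the interferon-induced activator of the family and had 6 peaks. A peak of 382 bp (132490825 to 132491206) began 52 bp upstream of the canonical TSS at 132490773 and held 199 of the 300 promoter bases. The 200 bp around its midpoint had 77.5% G and C, and none of the motifs searched was found there. A peak of 586 bp lay at -10264 bp in an intron of ENSG00000283782, a gene annotated on the opposite strand. The other 4 peaks (689, 1694, 775 and 907 bp) lay 64093 to 79303 bp downstream, where the antisense gene IRF1-AS1 is annotated. They belong to the window only because a long IRF1 transcript of the nonsense-mediated decay class extends the annotated body, and with the canonical transcript alone 2 peaks were counted. The 907 bp peak had its midpoint in an exon of LINC02863, 29 bp from an annotated TSS. The 689, 1694 and 775 bp peaks lay in introns of a non-canonical transcript of ENSG00000283782. For all 4 distal peaks the nearest canonical TSS of a coding gene was that of ENSG00000283782, at 22972 to 38182 bp.

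CEBPB (ENSG00000172216.6, chromosome 20, 50190830 to 50192668, plus strand), a factor of macrophages and of granulocyte production under stress, had 2 peaks. The nearer one (50197204 to 50197777, 574 bp) was intergenic with its midpoint 6660 bp downstream of the TSS. Its central 200 bp held 2 CEBP sites, and 7.47% of all peaks held at least 1 in the same length. The other (50165892 to 50166306, 415 bp) lay at -24731 bp in an exon of LINC01275, with its midpoint 2 bp from a TSS, and PEDS1 was the nearest coding gene. The body of CEBPB and its promoter held no peak.

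IRF8 (ENSG00000140968.12, chromosome 16, 85899116 to 85922606, plus strand), the factor of monocytes and dendritic cells, had a single intergenic peak of 538 bp (85850162 to 85850699) at -48732 bp. The megabase of chromosome 16 that holds IRF8 had 54 peaks. The other 53 were over 100 kb from IRF8, the nearest of them at 281810 bp. IRF2 (ENSG00000168310.12, chromosome 4, 184385702 to 184474558, minus strand), which counters IRF1, had a peak of 520 bp (184451704 to 184452223) in intron 1, 22587 bp downstream of its TSS. It was the only peak in the 188857 bp of the window.

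The central 200 bp of 3 of these peaks are shown, namely the CEBPB peak nearest its TSS and the only peaks of IRF8 and IRF2, so that their motif matches can be read in place. They are given 5′ to 3′ on the plus strand of hg38, with every match to a searched motif on either strand in capitals.

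CEBPB, downstream peak (chr20:50197391-50197590): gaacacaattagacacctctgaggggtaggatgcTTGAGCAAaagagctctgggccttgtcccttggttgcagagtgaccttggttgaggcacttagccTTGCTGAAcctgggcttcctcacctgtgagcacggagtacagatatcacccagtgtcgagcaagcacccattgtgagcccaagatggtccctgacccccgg
IRF8, upstream peak (chr16:85850331-85850530): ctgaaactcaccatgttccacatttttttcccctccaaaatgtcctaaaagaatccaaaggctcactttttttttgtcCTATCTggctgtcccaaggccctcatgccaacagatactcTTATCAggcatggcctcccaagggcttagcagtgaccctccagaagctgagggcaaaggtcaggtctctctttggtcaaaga
IRF2, intron 1 peak (chr4:184451864-184452063): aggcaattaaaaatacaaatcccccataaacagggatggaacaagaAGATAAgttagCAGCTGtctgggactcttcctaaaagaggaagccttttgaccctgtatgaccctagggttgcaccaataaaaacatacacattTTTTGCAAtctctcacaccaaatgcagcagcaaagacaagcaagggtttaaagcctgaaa

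The capitals mark 2 CEBP sites at CEBPB and 2 GATA sites at IRF8. At IRF2 they mark a GATA site, a TAL1 E-box that follows it and a CEBP site farther on. No composite element was found in any of the 3. Of all peaks, 47.1% held a GATA site and 33.8% a TAL1 E-box in windows of this length.

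CEBPA (ENSG00000245848.3, chromosome 19, 33299934 to 33302534, minus strand), the commitment factor that is mutated in a share of acute myeloid leukemias, had no peak. The nearest, of 319 bp, was 97218 bp from the gene body, and 42.1% of protein-coding genes lay farther from a peak. The same peak was nearest to CEBPG (ENSG00000153879.9, chromosome 19, 33373685 to 33382686, plus strand), which encodes a broadly expressed partner for other CEBP proteins, at 170969 bp. The windows of both genes share 28850 bp. For CEBPD (ENSG00000221869.5, chromosome 8, 47736913 to 47738164, minus strand), a factor of the inflammatory response, the distance was 179255 bp. For IRF4 (ENSG00000137265.16, chromosome 6, 391739 to 411443, plus strand) it was 192952 bp. The median over 19970 genes on chromosomes with peaks was 66873 bp, so all 4 genes were farther from a peak than the median gene.

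To see how much of the empty windows was repeated sequence, short stretches were counted in hg38. Of 31-base sequences taken each 100 bp, the share found once in hg38 was 86.6% for CEBPA, 90.5% for CEBPG, 80.8% for CEBPD, 92.7% for IRF4 and 89.5% for CEBPE. No window held unknown bases. Of the 27 peaks, 26 had a central sequence of 31 bases found once in hg38, and the exception, a 473 bp peak around CEBPE, had 2 copies. Over the whole list 10.7% of peaks had a repeated central sequence.

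To see whether the empty windows lacked the composite element, its matches were counted along each whole window. CEBPE had 7 in its window and 5 of them lay in a peak. The other 8 windows had 50 different matches, of which 1, at IRF1, lay in a peak. IRF2 had 15 matches, IRF8 13 and IRF4 5, with 0 in a peak. CEBPA and CEBPG had 4 each, with 1 in the stretch they share, CEBPB 2 and CEBPD 1, again with 0 in a peak. Across hg38 there were 224764 matches and 1.21% lay in a peak. For GATA sites alone, 32 of 185 in the CEBPE window lay in a peak, compared with 11 of 303 at IRF1, 3 of 202 at IRF8, 1 of 404 at IRF2 and 1 of 132 at CEBPB. Across hg38 the share was 0.232%. The windows without a peak held 151 to 188 GATA sites. The motif is short and had 7197228 matches across hg38, so these counts do not tell why a window is empty. Peaks covered 11.7% of the CEBPE window but 2.99% at IRF1, 0.971% at CEBPB, 0.436% at IRF8 and 0.275% at IRF2. How far this coverage accounts for the difference was not tested.

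Motifs were then compared in the 200 bp around each midpoint. A GATA site was found in 7 of the 27 peaks (25.9%, Wilson 95% interval 13.2 to 44.7%) and in 47.1% of all peaks. The composite was found in 2 of 27 (7.41%, 2.06 to 23.4%) and in 11.2% of all peaks. TAL1 E-boxes occurred in 13 of 27 (48.1%, 30.7 to 66.0%), 10 of them around CEBPE, and in 33.8% of all peaks. RUNX sites were found in 6 of 27 (22.2%, 10.6 to 40.8%) and in 20.5% of all peaks. The GATA share lay below that of the whole list and its interval left out the value of the list, while the intervals for composite, E-box and RUNX included theirs. Taken alone, the 17 CEBPE peaks (4 with GATA) and the 10 others (3 with GATA) each had an interval that included the GATA share of the list. These intervals cover counting error only, treat peaks of 1 locus as independent, and no test of the difference was made. Over the whole length of the peaks a GATA site was found in 16 of 27 (59.3%) and in 71.4% of all peaks. The same motifs were counted in flanks of 200 bp centred 1000 bp to either side of each midpoint, not kept clear of peaks. Of 54 member flanks, 13 held GATA (24.1%), 0 the composite, 11 a TAL1 E-box (20.4%) and 6 RUNX (11.1%). In the flanks of all peaks the shares were 27.5%, 1.62%, 22.2% and 16.6%, in that order. The member GATA share thus lay near that of its own flanks, and no test was made.

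Since these genes encode CEBP and IRF factors, the sites of their own products were also counted. CEBP sites were found in 4 of 27 peaks (14.8%, 5.92 to 32.5%) and in 7.47% of all peaks. These were at CEBPB, IRF2 and 2 of the distal IRF1 peaks, with 0 of 17 around CEBPE. The 4 were 40.0% of the 10 peaks outside the CEBPE window (16.8 to 68.7%). That interval left out the share of the list, but the split was chosen after seeing the data and no test was made. IRF sites (GAAANNGAAA) were found in 0 of 27 (upper bound 12.5%) and in 1.58% of all peaks. The ETS motif (MGGAAGT) was found in 3 of 27 (11.1%, 3.85 to 28.1%) and in 6.18% of all peaks. All 3 also held the longer PU.1 motif (GAGGAAGT), which contains it (11.1%, 3.85 to 28.1%). Of all peaks 1.64% held the PU.1 motif, a value outside that interval. These were the 896 bp peak ahead of CEBPE and the 775 and 907 bp peaks of the distal IRF1 group. The last 2 are neighbours that the interval treats as independent. PU.1 is the ETS factor that works with CEBP and IRF proteins in myeloid cells. Of the 54 member flanks, 2 held a CEBP site (3.70%), 1 an IRF site, 2 the ETS motif and 0 the PU.1 motif. In the flanks of all peaks the shares were 9.12%, 2.91%, 4.49% and 1.05%, in that order.

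**Figure D4:**
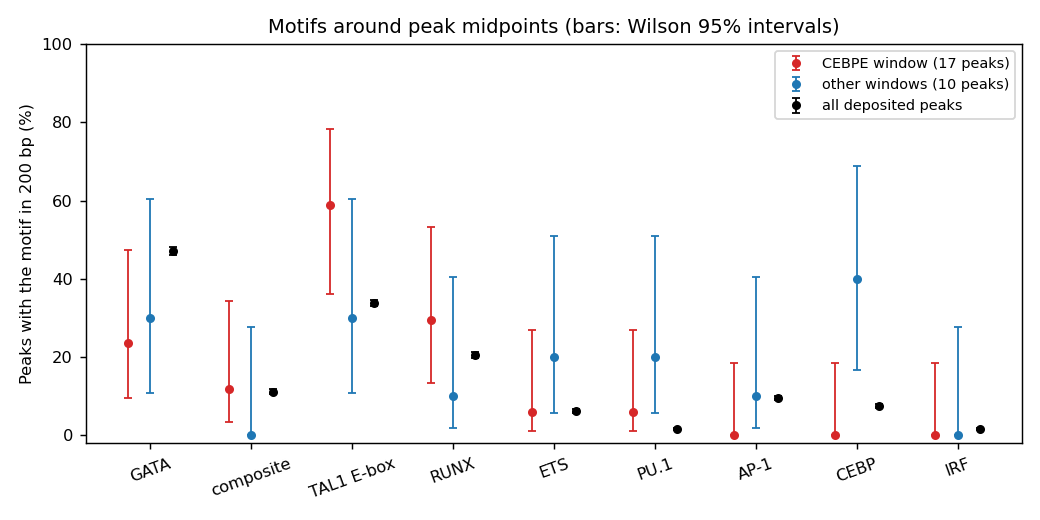
Share in percent of peaks with each motif in the 200 bp around the midpoint, for the 17 peaks around CEBPE, the 10 peaks of the other windows and all 11046 peaks; bars are Wilson 95% intervals. GATA points of both groups lie below the 47.1% of all peaks, CEBP sites are at 4 of the 10 other peaks and 0 of the 17, and the intervals are wide.

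AP-1 sites (TGASTCA, S is C or G) were found in 1 of 27 central windows (3.70%, 0.657 to 18.3%) and in 9.50% of all peaks. An AP-1 site did occur in the promoter of CEBPE, inside the peak that covers its TSS but away from the midpoint. It is shown from chr14:23119339-23119365 on the minus strand, the strand of the gene, with the site in capitals, because it was the single motif match in that promoter.

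CEBPE promoter, AP-1 site: tgcccctcccTGAGTCAccccaagggg

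Of the 9 genes, 7 had a RefSeq promoter sequence in the table used. None of the 7 held a GATA site, a composite, an ETS, CEBP or IRF motif in its promoter. Of the 35116 promoters in that table, 24.97% held a GATA site, 1.34% a composite, 14.4% an ETS motif, 10.5% a CEBP site and 3.57% an IRF site. Besides the AP-1 site of CEBPE, whose motif 4.95% of promoters held, 1 of the 2 IRF8 promoters held 2 TAL1 E-boxes and 1 RUNX site, found in 29.8% and 19.6% of promoters. The promoter of CEBPA had 80.7% G and C and that of CEBPE 57.7%.

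The 27 peaks had a median length of 538 bp (quartiles 386 and 746 bp, range 236 to 3034 bp), and all 11046 had a median of 451 bp (quartiles 314 and 666 bp). Around CEBPE the median was 444 bp over 17 peaks, and in the other windows 580 bp over 10. Peaks over 1 kb were 3 of the 17 around CEBPE and 1 of the 10 in the other windows, and 10.5% of all peaks were that long. By position, 18 of the 27 midpoints (66.7%, 47.8 to 81.4%) lay within 3 kb of the TSS of any annotated transcript, compared with 35.6% of all peaks. The windows were drawn around genes while the whole list includes peaks far from any gene, so the choice of members itself favours the higher share. Of the 18, 13 were around CEBPE.

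Other genes of the same network were read in the same windows, from lists drawn up around the families, their partners and their targets. Of 7 other members of both families, 2 had a peak (28.6%), where 44.8% of all protein-coding genes did. Within 3 kb 0 had one, where 19.7% of all did. DDIT3, a stress-induced CEBP protein, had 3 peaks, all beyond 3 kb of the gene. CEBPZ, IRF3, IRF5, IRF7 and IRF9 had 0.

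Of 9 partners and co-regulators, 8 had a peak, where 44.8% of all protein-coding genes did, and 5 had one within 3 kb, where 19.7% did. IRF2BP1, a corepressor that binds IRF2, had 4, and its relatives IRF2BP2 and IRF2BPL had 3 each, as did STAT2. BATF, a partner of IRF4 and IRF8, had 0. SPI1, which encodes PU.1 and is named here after its value was seen, had 2, the longer of 1348 bp. Of 12 myeloid genes that these factors are known to act on, 9 had a peak, again beside 44.8% of all protein-coding genes. CSF1R, the monocyte growth factor receptor, had 10 with 7 within 3 kb, CSF3R, the granulocyte growth factor receptor, had 5, and the granule gene LTF had 4. MPO, CAMP and CYBB had 0. The genes ELANE, PRTN3 and AZU1 of this list lie side by side and share peaks, so their counts are not separate.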

How the data were processed

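The authors made 1 LDB1 and 1 IgG CUT&Tag library from NB4 cells. Their notes and methods give hg38 as the build, Bowtie2 2.4.4 as the aligner and MACS3 3.0 as the peak caller. Use of IgG as control is not given in the sources used here. The deposited values were peak start, end and length in bp for the LDB1 library, with no score or depth. The IgG library was not analysed here.

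Peaks were read as counted from 1 and set against GENCODE release 44 on hg38. Any overlap with a window counted, and the midpoint stood for the summit. Motifs were searched on both strands, and a palindrome counted once. The GATA motif is part of the composite and the ETS motif part of the PU.1 motif. Shares have Wilson 95% intervals. Genes and lists were chosen with earlier results of these data known. All 9 genes were named, with the longest peak, the peak nearest the TSS and each peak with a composite in its central 200 bp. Further peaks were described to account for all 27. Of the listed genes, those with 0 peaks and the 3 highest (ties included) were named, except 1 gene that is not reported here. Counting was tested on simulated data. Alternatives were windows of 3, 10 and 100 kb, the longer 5523 peaks, peaks whose central 31 bases were unique, merged peaks, midpoint overlap, motif windows of 100 bp or the whole peak, and other TSS definitions. The tools were pysam 0.24.0, SciPy 1.17.1, pandas 2.3.3, numpy 2.4.6 and matplotlib 3.10.9 under Python 3.11.15.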

Additional observations from a re-analysis of the deposited data

How the results depend on the processing

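No paired analysis was possible because each antibody had 1 library. Of 75 alternative values, 54 stayed within 1.5 times (counts), the quartiles (lengths) or the interval (shares), and 21 did not. The 27 peaks became 7 with 3 kb on each side, 12 with 10 kb, 16 in the longer 5523 peaks and 10 without the CEBPE window. The 17 peaks of CEBPE became 4 with 3 kb, 8 with 10 kb and 8 in the longer peaks. The genes with a peak fell from 5 to 3 with 3 kb. With canonical transcripts in place of gene bodies, also chosen after seeing the data, 23 peaks were counted. Counts in narrower windows and in fewer peaks are smaller by construction.

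In windows of 100 bp the share was 25.9% for the TAL1 E-box, 7.41% for RUNX and 0% for AP-1. A shorter window can only lower such a share, and no share of all peaks at 100 bp is given beside them. Over the whole peak it was 59.3% for GATA, 77.8% for the TAL1 E-box, 44.4% for RUNX, 18.5% for AP-1 and 33.3% for CEBP. For all peaks the whole-peak shares were 71.4%, 60.0%, 43.0%, 19.2% and 19.0%, in that order. Without the CEBPE window, chosen as an alternative after seeing the data, the member share in 200 bp was 0% for the composite, 30% for the TAL1 E-box, 10% for RUNX and 40% for CEBP. Midpoints within 1 kb of a TSS made up 44.4%. Depth behind each peak is unknown.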
